A study of Mus musculus with 12 samples.

Results

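The Notch receptors Notch1, Notch2, Notch3 and Notch4, the ligands Jag1, Jag2 and Dll1, and the target genes Hes1, Hey1 and Nrarp were examined in bulk RNA sequencing of mouse tongue. The 10 genes were found by their symbols, and all 10 were among the 16852 named genes that passed the filter on low values. The material came from C57BL/6 mice bought at 5 weeks of age, all of which drank 4-nitroquinoline 1-oxide (4NQO), a carcinogen that damages DNA, at 100 µg/mL for 16 weeks. From week 4, the vehicle group was gavaged with methyl cellulose and Tween-20, and the gallic acid (GA) group with GA, a plant phenolic acid, at 100 mg/kg. Gavage was given 5 times a week until the mice were killed. Each group held 6 libraries, labelled as tongue with tumor and tumor-associated cells. Every library was from a 4NQO mouse, so a level in unexposed tongue was not measured here. The labels number the replicates without naming an animal. The p-values therefore measure the spread between these libraries, which may be partly technical.

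Notch receptors are membrane proteins that are activated by Jagged and Delta-like ligands on a neighbouring cell. After activation the receptor is cut by ADAM proteases and gamma-secretase, and its inner part enters the nucleus, where it acts with Rbpj and Mastermind proteins to switch on repressors of the Hes and Hey families. In stratified squamous epithelium the pathway is known for promoting differentiation, and loss of Notch1 is known from oral squamous carcinoma. In blood vessels it is known for arterial identity and for the upkeep of mural cells. From such general knowledge Notch1, Notch2, Jag1, Jag2, Dll1 and Hes1 (6 genes) were assigned to the epithelium, and Notch3, Notch4, Hey1 and Nrarp (4 genes) to the vessels.

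The libraries held 18039845 to 25190387 reads, as recovered from the deposited FPKM values (fragments per kilobase of exon, relative to library size). Epithelium, muscle and vessels were all present: mean scaled FPKM was 3710 for Krt14 of basal keratinocytes, 10900 for Krt13 of suprabasal keratinocytes, 360.0 for Ckm of skeletal muscle, 12.6 for Cdh5 of endothelium and 26.9 for Rgs5 of pericytes. Vehicle libraries 3 and 5 and GA library 2 stood apart. They contained lingual gland, with 8770 to 25500 FPKM of the gland lipase Lipf, against at most 0.508 in the other 9 libraries, called gland-free below. Y-linked genes had reads in 4 vehicle libraries, numbers 1 to 4, but in just 1 of the GA libraries, number 1, so sex and group were unevenly matched. In whole tissue, fewer cells of a type and less RNA per cell cannot be told apart.

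Hes1, a repressor that holds progenitors undifferentiated, was the most abundant of the 10 transcripts, and the Jagged ligands followed. Because FPKM is given per exon length, levels can be compared between genes, and the values in this paragraph are mean scaled FPKM ± SD over 12 libraries. Hes1 reached 25.8 ± 4.34 and exceeded Jag2, at 20.0 ± 3.35, in 10 of 12 libraries. Jag2, Jag1 (19.6 ± 4.72) and Notch3 (17.1 ± 3.81) were not clearly ordered, since Jag2 exceeded Jag1 in 7 libraries and Jag1 exceeded Notch3 in 8. Notch3, better known from vessel walls, was thus the most abundant receptor and was above Notch2 (10.9 ± 2.81) in 12 of 12 libraries. Notch2 lay close to Nrarp (10.1 ± 1.68), which it exceeded in 8 libraries. Below them Notch1 (7.37 ± 1.85), Dll1 (3.37 ± 0.911) and Notch4 (1.25 ± 0.501) each stayed under the gene before in 12 of 12 libraries. Notch4 and Hey1 (1.17 ± 0.257) did not differ beyond their spread, with Notch4 higher in 7 libraries. Hey1 rested on 51 to 112 reads per library and Notch4 on 70 to 438, so their values carry more counting error than those of Jag2, with 2297 to 5225 reads.

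**Figure D1:**
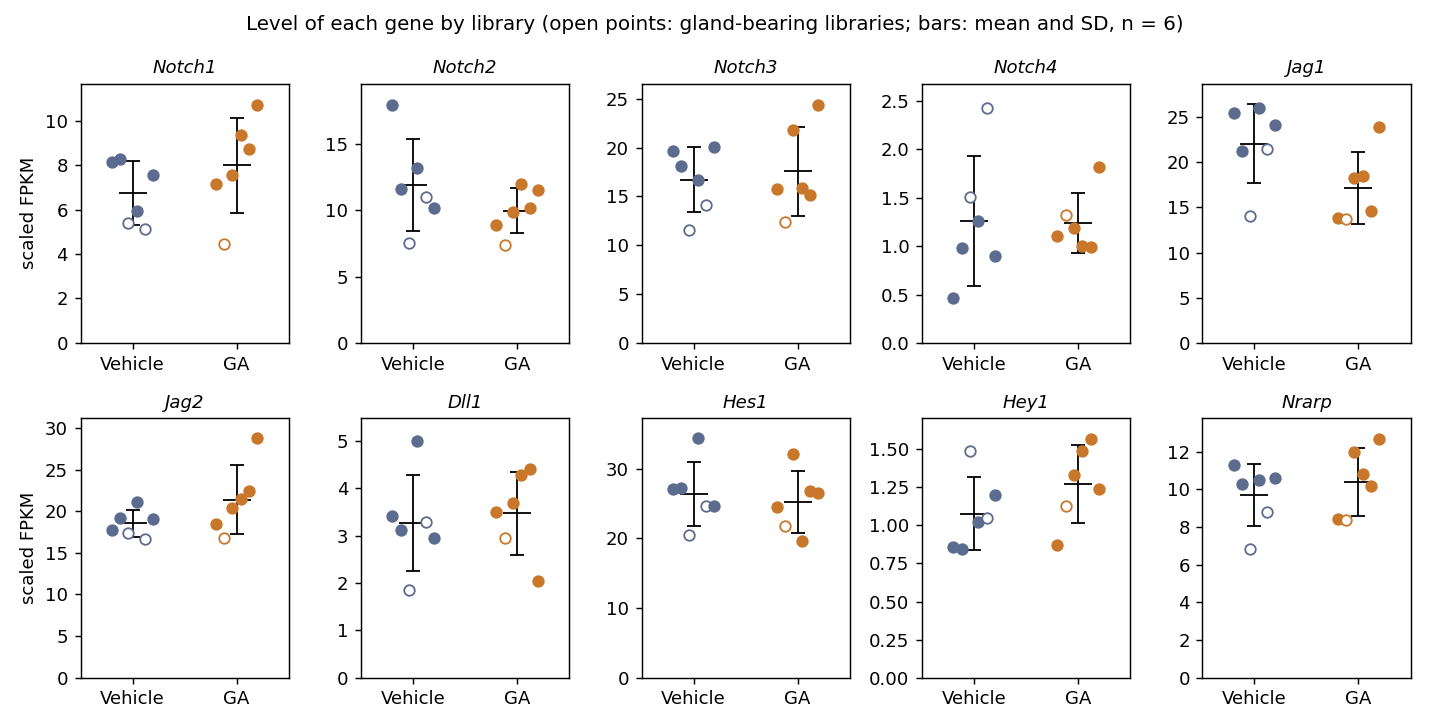
Scaled FPKM of each of the 10 genes in the 6 vehicle and 6 GA libraries, with the mean and SD as black bars and the gland-bearing libraries as open points. Vehicle and GA points overlap for every gene.

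GA was compared with vehicle to learn whether treatment changed the expression of the pathway. None of the 10 genes was called, for which limma had to give an adjusted p under 0.1, over all genes, together with a log2 fold change of 0.58 or more in either direction, and the same test called 0.0% of all genes tested. An unadjusted p below 0.05 was reached by 0 of the 10 genes, against 2.16% of all genes. Adjusted p was 0.9999 for each of the 10 genes (limma). The group means were higher with GA for 7 genes and lower for 3, where 50.9% of all genes were higher. The median difference of the 10 genes was 0.098 on the log2 scale, beside 0.004 over all genes. Vehicle and GA libraries overlapped for all 10 genes (0.0653% of all genes did not overlap). All differences below are GA minus vehicle on the log2(scaled FPKM + 0.1) scale, which understates the change of low genes.

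**Figure D2:**
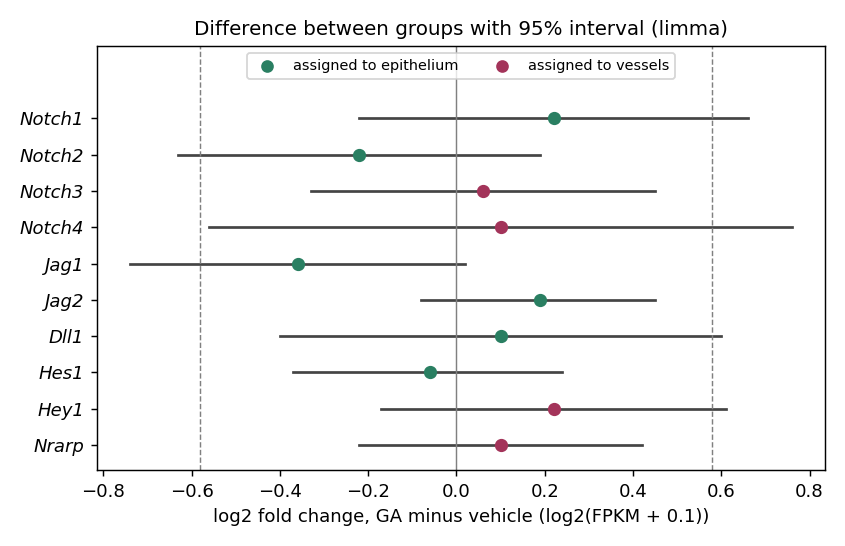
Log2 difference between GA and vehicle for each gene (points) with its 95% interval from limma (lines), coloured by the compartment assigned to the gene. Dashed lines mark 0.58 in either direction, and every interval includes 0.

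Among the receptors, Notch1 and Notch2, which drive differentiation in squamous epithelium, differed from vehicle in opposite directions, and neither difference exceeded the spread between libraries. Notch1 ran from 5.12 to 8.30 scaled FPKM with vehicle (median 6.74) and from 4.46 to 10.7 with GA (median 8.13). The lowest GA library was the gland-bearing one, and 5 of the 6 GA values exceeded the median of the vehicle group. Its log2 difference was 0.22 (standard error 0.20, 95% interval -0.22 to 0.66), with p = 0.348 in the exact two-sided permutation test over all assignments of the libraries. It was 0.13 without GA library 6 and 0.37 without GA library 2, 0.12 with the lingual gland score as a term, and 0.01 with the neutrophil score as a term. All 8 neutrophil markers were lower with GA (median -0.82, none with an unadjusted p below 0.05). Their summed FPKM was 1110 to 2620 with vehicle and 235 to 1830 with GA. That sum mainly describes S100a8 and S100a9, with mean scaled FPKM of 560 and 912. Csf3r, Retnlg and Clec4d had means of 2.65, 3.28 and 2.42 and lowest library values of 0.03, 0 and 0. No marker was at 0 in all libraries. The neutrophil score, a mean of log2 levels, weighs all 8 markers equally. Notch2 ran from 7.5 to 17.9 with vehicle (median 11.3) and from 7.36 to 12 with GA (median 10.1). Vehicle library 1 alone lay above the other libraries, at 17.9. The log2 difference of Notch2 was -0.22 (standard error 0.19, interval -0.63 to 0.19, exact permutation p = 0.303). It was -0.09 without vehicle library 1, -0.34 without vehicle library 3 and -0.14 without GA library 2.

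Notch3, the receptor of vascular smooth muscle and pericytes, showed no detectable difference. It ran from 11.6 to 20.1 scaled FPKM with vehicle (median 17.4) and from 12.4 to 24.4 with GA (median 15.9). The GA group held both a library at 12.4 and the highest of all, library 6. The log2 difference was 0.06, and its interval (-0.33 to 0.45) stayed inside the fold change limit of 0.58. Notch4, an endothelial receptor, was the most variable of the 10 genes, with a coefficient of variation of 40.1% over all libraries and of 53.7% within the vehicle group. Vehicle library 1 gave 0.468 and vehicle library 5 gave 2.43, which were the lowest and the highest of the 12, and GA libraries lay between 0.995 and 1.82. Its log2 difference of 0.10 had an interval of -0.56 to 0.76, so this precision could not tell a difference past the upper limit from none. The difference was -0.12 without vehicle library 1, 0.31 without vehicle library 5 and 0.44 without the gland-bearing libraries.

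Among the ligands, Jag1, which keratinocytes and endothelium present to Notch receptors, had the smallest p of the 10 genes, and Jag2, a ligand of basal keratinocytes, differed the other way. Jag1 ran from 14.1 to 26.0 scaled FPKM with vehicle (median 22.8) and from 13.7 to 23.9 with GA (median 16.5). In 5 of 6 GA libraries it was below the vehicle median, GA library 6 being the exception, while the lowest vehicle value, 14.1, came from gland-bearing library 3. The log2 difference was -0.36 (standard error 0.17, interval -0.74 to 0.02), with an unadjusted limma p of 0.0596 and an exact permutation p of 0.0758. Without the 3 gland-bearing libraries it was -0.46, with an unadjusted limma p of 0.0192. In that fit 511 of all 16852 genes had an unadjusted p below 0.05, against 364 with all 12 libraries. Among the 7 libraries that lacked Y-linked reads the difference was -0.38 (unadjusted p = 0.129), in a comparison of 2 vehicle with 5 GA libraries. Of the markers of basal epithelium 7 of 8 were lower with GA and 1 higher (median -0.18, none with an unadjusted p below 0.05), and their summed level ran from 4540 to 9270 with vehicle and from 2970 to 11900 with GA. This was not particular to basal cells. Suprabasal (7 of 9), fibroblast (6 of 6), neutrophil (8 of 8) and macrophage (4 of 5) markers were also mostly lower. Endothelial (10 of 10), mural cell (5 of 8) and skeletal muscle (7 of 7) markers were mostly higher. A fit of all 12 libraries with the basal score, the mean log2 level of that list, as a term gave a Jag1 difference of -0.26, with an unadjusted limma p of 0.0446.

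Jag2 ran from 16.7 to 21.1 scaled FPKM with vehicle (median 18.4) and from 16.8 to 28.8 with GA (median 20.9). The vehicle group was the tightest of all 10 genes, with a coefficient of variation of 8.51%, and 5 of 6 GA libraries were above its median. The log2 difference was 0.19 (standard error 0.12, interval -0.08 to 0.45, exact permutation p = 0.141), inside the fold change limit. Dll1, a Delta-like ligand known from epidermal stem cells, lay between 1.86 and 5.01 with vehicle (median 3.21) and between 2.05 and 4.4 with GA (median 3.59). Its log2 difference was 0.10 (interval -0.40 to 0.60, exact permutation p = 0.686). The exon bases of Dll1 overlap a gene on the other strand, A930024N18Rik, over 20.55% of their length. Whether the counting used strand is not given in the sources used here, so reads from the pair cannot be told apart.

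The target genes did not differ between groups beyond their spread. Hes1 ran from 20.5 to 34.4 scaled FPKM with vehicle (median 25.9) and from 19.6 to 32.2 with GA (median 25.5). Its log2 difference was -0.06 (interval -0.37 to 0.24, exact permutation p = 0.649), which lies inside the limit. Hey1, a repressor known from arterial endothelium, ran from 0.846 to 1.49 with vehicle (median 1.03) and from 0.869 to 1.57 with GA (median 1.29). In 5 of 6 GA libraries its level exceeded the vehicle median, with a log2 difference of 0.22 (standard error 0.18, interval -0.17 to 0.61, exact permutation p = 0.195). With a term for Y-linked reads this became 0.08, within the libraries without such reads it was 0.24, and without the gland-bearing libraries 0.36. Nrarp, a target that feeds back to shorten the Notch signal, ran from 6.82 to 11.3 with vehicle (median 10.4) and from 8.35 to 12.7 with GA (median 10.5). The medians were nearly equal, and the log2 difference of 0.10 had an interval of -0.22 to 0.42, inside the limit (exact permutation p = 0.524). A gene on the other strand, Gm38287, covers 79.43% of the exon bases of Nrarp, so its level is uncertain in the same way as that of Dll1.

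Single libraries accounted for many of the extremes. GA library 6 was the highest of the 12 for 4 genes (Notch1, Notch3, Jag2 and Nrarp) and vehicle library 4 for 3 (Jag1, Dll1 and Hes1). The gland-bearing vehicle library 3 and GA library 2 were each the lowest for 3 genes. In the 3 gland-bearing libraries mean scaled FPKM was 5.0 for Notch1 and 12.7 for Notch3, against 8.16 and 18.6 in the gland-free libraries. Notch4 had the opposite order, with 1.75 in gland-bearing and 1.08 in gland-free libraries. GA library 6 also had the highest basal epithelium score and the lowest suprabasal one, 8.18 and 6.86, where a score is the mean log2 level of a marker list. Vehicle library 4 had the next highest basal score, 8.04. The part of these tissue differences in the levels of the 10 genes was not tested.

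Genes of the same role were then set against each other within a library. Of the 12 ratios that can be formed between receptors, between ligands and between targets, 0 separated the groups completely in 12 libraries (0.0819% of all pairs of genes did so). Among the 9 gland-free libraries 2 of the 12 ratios separated the groups, where 0.862% of all pairs of genes did. These were the ratios of Jag1 to Jag2 and of Notch1 to Notch2. They are described without a test, since they were singled out after their values were seen.

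Jag1 was more abundant than Jag2 in 5 of 6 vehicle libraries and less abundant in 6 of 6 GA libraries. The ratio of Jag1 to Jag2 ran from 0.81 to 1.43 with vehicle (median 1.25) and from 0.653 to 0.901 with GA (median 0.825). The vehicle value of 0.81 belonged to gland-bearing library 3, and the other 5 vehicle libraries lay between 1.10 and 1.43. On the log2 scale the ratio was 0.23 ± 0.29 with vehicle and -0.33 ± 0.17 with GA (mean ± SD, n = 6), a difference of -0.55. Where Y-linked reads were absent the ratio was 1.26 to 1.29 with vehicle and 0.653 to 0.901 with GA. That comparison held only 2 vehicle and 5 GA libraries. The share of all pairs of genes that separate in it was not taken, so no conclusion is drawn from these ranges. Jag1 lies on chromosome 2 (137081456 to 137116644, minus strand) and Jag2 on chromosome 12 (112907819 to 112929776, minus strand) of GRCm38, and no exon of either overlaps another gene.

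Notch1 was less abundant than Notch2 in all 12 libraries, and the median ratio was higher with GA. The ratio of Notch1 to Notch2 ran from 0.449 to 0.742 with vehicle (median 0.59) and from 0.607 to 0.931 with GA (median 0.791). All 6 GA libraries were above the vehicle median, and 5 of 6 were above the vehicle maximum, the exception being gland-bearing library 2. The vehicle libraries fell into a low set (1, 4 and 5, at most 0.467) and a high set (2, 3 and 6, at least 0.714). The mean log2 ratio was -0.80 ± 0.37 with vehicle and -0.35 ± 0.21 with GA (n = 6), a difference of 0.44. In gland-free libraries the highest vehicle value, 0.742, lay just under the lowest GA value, 0.765, a gap far smaller than the spread within the vehicle group. Without Y-linked reads the groups overlapped, at 0.467 to 0.742 with vehicle and 0.607 to 0.931 with GA. Notch1 (chromosome 2, 26457903 to 26516663, minus strand) and Notch2 (chromosome 3, 98013527 to 98150361, plus strand) overlap other genes over 9.76% and 5.02% of their exon bases.

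**Figure D3:**
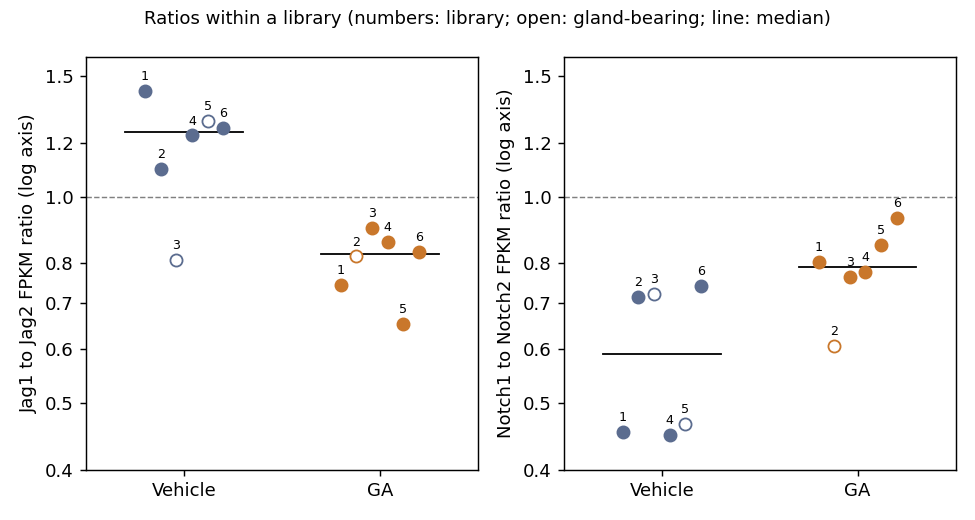
Ratio of Jag1 to Jag2 (left) and of Notch1 to Notch2 (right) in each library on a log axis, with library numbers, gland-bearing libraries as open points and group medians as lines. Every GA library lies below 1 for Jag1 to Jag2, and among gland-free libraries the groups do not overlap in either ratio.

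The genes assigned to the epithelium and to the vessels were next compared as sets, although the check below did not place any of the latter 4 firmly in vessels. The 6 genes assigned to the epithelium were higher with GA in 3 cases and lower in 3 (median log2 difference 0.02), and the 4 assigned to vessels were higher in 4 of 4 (median 0.10). The mean log2 level of the first set minus that of the second was 1.6 ± 0.31 with vehicle, ranging from 1.19 to 2.04. With GA it was 1.46 ± 0.15, ranging from 1.29 to 1.6 (SD, n = 6). The difference of -0.14 was smaller than the spread within the vehicle group, and it was -0.06 without vehicle library 1 and -0.23 without vehicle library 3. It is given as a description, since the genes share libraries and are not replicates. The endothelial markers were higher with GA in 10 of 10 cases (median 0.15) and the mural cell markers in 5 of 8 (median 0.20), with none at an unadjusted p below 0.05. The summed FPKM of the endothelial markers ran from 18.8 to 90.0 with vehicle and from 47.1 to 75.7 with GA, and that of the mural markers from 14.4 to 83.8 and from 39.7 to 71.4. Vehicle library 1 had the lowest score of both lists, 0.68 for endothelium and -0.01 for mural cells. For endothelium the other vehicle libraries scored 2.04 to 2.83 and the GA libraries 2.0 to 2.66. For mural cells these ranges were 1.27 to 2.27 and 1.21 to 1.92, so the higher levels with GA rested on that library. The suprabasal markers were higher in 2 of 9 cases (median -0.12). No marker of these lists was at 0 in all libraries, and with the endothelium score as a term the Notch4 difference was -0.04.

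The assignment of genes to compartments was checked by correlating each gene's log2 level with the scores of basal epithelium, suprabasal epithelium, endothelium and mural cells over the 9 gland-free libraries. The 40 relations were tested by exact permutation over 362880 pairings, two-sided. Libraries with and without Y-linked reads held fewer than 6 each, so no value within a sex is given. For Notch3 and Nrarp the highest r was not with a score of the assigned compartment, although whole-tongue libraries cannot place a transcript in a cell type. Notch3 had its highest correlation with the basal epithelium score (Pearson r = 0.62, exact permutation p = 0.0784, adjusted p = 0.348; Spearman rho = 0.80, p = 0.0138, adjusted p = 0.138) and negative ones with the endothelium (-0.29) and mural cell scores (-0.41). Without GA library 6 and vehicle library 4, the libraries farthest from the median of the basal score, r was 0.79. Nrarp likewise had r = 0.62 with the basal score (exact permutation p = 0.0759, adjusted p = 0.348; rho = 0.68, p = 0.0503, adjusted p = 0.252), -0.43 with endothelium and -0.50 with mural cells, and r was 0.63 without the same libraries. Neither relation passed the adjustment.

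Of the genes assigned to the epithelium, Jag1 followed the basal score most closely (r = 0.76, exact permutation p = 0.0211, adjusted p = 0.211; rho = 0.75, p = 0.0255, adjusted p = 0.146), with r = 0.75 without GA library 6 and vehicle library 4. Jag2 had r = 0.57 with the same score, which rested on those libraries, since r was -0.20 without them. Hes1 had its highest r with the basal score (0.43), Notch2, Dll1 and Notch1 theirs with the suprabasal score (0.39, 0.18 and 0.13), and Hey1 its highest with the mural cell score (0.29). Notch4 was the sole member of its assignment with a high r for endothelium, 0.69 (exact permutation p = 0.095, adjusted p = 0.376), but rho was 0.02 (p = 0.982, adjusted p = 0.982), and without vehicle library 1 and GA library 1 r was -0.41. The relation rested on vehicle library 1, which had the lowest endothelium score of all (0.68). Hence for Hey1 and Notch4 the libraries gave no firm placement in either compartment.

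Of the 40 relations, 2 passed an adjusted p of 0.05, both negative. Notch4 was low where the suprabasal score was high (r = -0.91, exact permutation p = 0.000226, adjusted p = 0.00904; rho = -0.85, p = 0.00607, adjusted p = 0.121), and without vehicle library 1 and GA library 6 r was -0.79. Notch2, assigned to the epithelium, was low where the endothelium score was high (r = -0.93, exact permutation p = 0.000741, adjusted p = 0.0148; rho = -0.80, p = 0.0138, adjusted p = 0.138), and r was -0.65 without vehicle library 1 and GA library 1. All points of these relations are libraries of whole tongue, and vehicle library 1 is among the farthest in both. Over all 12 libraries 3 relations passed by Pearson r (permutation test, 100000 resamples). Notch2 with endothelium was kept (r = -0.83, adjusted permutation p = 0.0348), and Jag1 with basal epithelium (r = 0.79) and Notch2 with mural cells (r = -0.81) were added at the same adjusted p. Notch4 with suprabasal epithelium did not pass there by r (-0.75, adjusted permutation p = 0.0673) but did by rho (-0.85, adjusted permutation p = 0.016). By rho, Notch3 and Nrarp also passed with endothelium (-0.76 and -0.83, adjusted permutation p = 0.0332 and 0.0178). With mural cells their rho was -0.81 and -0.86 (adjusted permutation p = 0.0178 and 0.016). Jag1 passed by rho with basal epithelium and endothelium, and Notch2 with endothelium but not with mural cells. These values include the gland-bearing libraries, which stood apart.

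**Figure D4:**
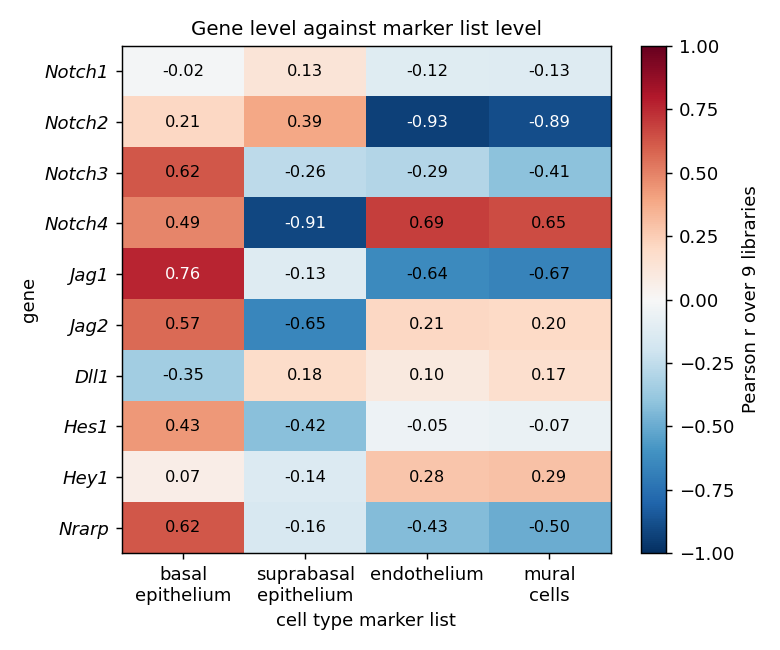
Pearson r between the log2 level of each gene (rows) and the score of each marker list (columns) over the 9 gland-free libraries, from blue (negative) to red (positive). Notch3 and Nrarp have their highest r with basal epithelium (0.62 each), and the strongest negative values are Notch2 with endothelium (-0.93) and Notch4 with suprabasal epithelium (-0.91).

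Among the 45 pairs of the 10 genes, Notch3 and Nrarp had the highest correlation over the gland-free libraries (r = 0.78, exact permutation p = 0.00935, adjusted p = 0.284; rho = 0.83, p = 0.00827, adjusted p = 0.372). Without GA libraries 5 and 6, farthest from the median of Notch3, r was 0.71. Notch3 and Dll1 had r = -0.77 (exact permutation p = 0.0126, adjusted p = 0.284; rho = -0.67, p = 0.0589, adjusted p = 0.663), and r = -0.47 without the same libraries. No pair passed the adjustment. The promoters of Notch3 and Nrarp are shown because this pair had the highest r. Both are the 250 bases before the transcription start from RefSeq on GRCm38.p6, written 5′ to 3′ in the direction of transcription. Nrarp is chr2:25180508-25180757 on the plus strand and Notch3 is chr17:32166891-32167140 on the minus strand.
Nrarp: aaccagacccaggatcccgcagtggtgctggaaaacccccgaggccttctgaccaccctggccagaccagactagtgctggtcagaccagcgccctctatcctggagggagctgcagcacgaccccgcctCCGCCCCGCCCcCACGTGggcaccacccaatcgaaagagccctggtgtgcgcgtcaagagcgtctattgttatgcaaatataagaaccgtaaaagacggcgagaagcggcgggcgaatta
Notch3: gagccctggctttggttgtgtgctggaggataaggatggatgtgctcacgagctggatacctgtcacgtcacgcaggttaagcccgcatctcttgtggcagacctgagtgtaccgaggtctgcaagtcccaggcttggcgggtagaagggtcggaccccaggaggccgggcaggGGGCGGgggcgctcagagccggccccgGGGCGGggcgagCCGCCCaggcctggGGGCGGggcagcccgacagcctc
Capitals mark GC boxes (GGGCGG or CCGCCC, bound by Sp factors) and the E box CACGTG. The Nrarp window held 2 overlapping GC boxes, the nearest 115 bases before the start, followed by 1 E box, and the Notch3 window held 4 GC boxes, the nearest 23 bases before the start. Neither window held TGGGAA, the core that Rbpj binds, or TGACTCA, the site of AP-1, searched on both strands. Among 32851 RefSeq promoter windows of the same length, 32.7% held a GC box, 6.02% the E box, 21.6% the Rbpj core and 4.46% the AP-1 site. A match describes the sequence and no match describes only these letters in this window. Of the 10 genes, 8 had an entry in the promoter table.

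The genes most like each member were sought among 12162 genes of at least 1 FPKM over the same 9 libraries, by Pearson r of the log2 level, which is a description since the best of many was taken. Notch3 was closest to Tmprss11b, a serine protease of squamous epithelium (r = 0.963), and to Ythdc1 (0.95). Nrarp was closest to Defb14, a beta-defensin of epithelia (0.97), and to Psmd5 (0.966). Notch4 was closest to Zbtb4 (0.971) and to Mcam, an adhesion molecule of endothelium and mural cells (0.957). For the ligands the nearest genes were D16Ertd472e (0.97) for Jag1, Hirip3 (0.957) and Traf4 (0.949) for Jag2, and Imp3 (0.946) and Gldc (0.927) for Dll1. For the remaining genes they were Acer2 and Lrrc75a for Notch1 (0.927 each), Stam2 (0.979) and Btg3 (0.977) for Notch2, and Yif1b (0.917) and Nfil3 (0.913) for Hes1. Hey1 was closest to the X-linked genes Eif2s3x (0.937) and Xist (0.905). No member was among the nearest genes of another.

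The other genes of the pathway were examined as a list of 45 genes in 7 roles, of which 42 were tested. Dll3, Hes5 and Hes7 had 0 to 11 reads in a library and did not pass the filter. Of the 42 genes, 0 were called and 0 had an unadjusted p below 0.05 (limma), against 0.0% and 2.16% of all genes. Levels were higher with GA for 18 and lower for 24, with a median log2 difference of -0.03, where 50.9% of all genes were higher. The counts by role below are descriptions, since the genes share libraries and are not replicates.

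By role, 9 of 10 receptor cleavage genes were lower with GA, by small amounts (-0.24 to 0.02, median -0.13). Its most abundant gene, Psenen, a subunit of gamma-secretase, had 38.4 ± 5.46 scaled FPKM with vehicle and 37.1 ± 4.32 with GA. Of the nuclear complex 6 of 7 genes were lower (median -0.09). The other ligands were higher in 3 of 3 cases, with 0.23 for Dlk2, the most abundant (interval -0.42 to 0.87), and 0.43 for Dll4, the Delta-like ligand of endothelium, named after its values were seen (interval -0.41 to 1.27). Ubiquitin ligases of the ligands were higher in 3 of 5 cases, and Mib1, which triggers ligand endocytosis, differed by 0.02. Receptor glycosylation genes were higher in 3 of 5, with -0.03 for the fringe enzyme Rfng. Receptor turnover genes were higher in 4 of 8, with -0.03 for Numb, an inhibitor of Notch. The other Hes and Hey factors were higher in 3 of 4, with -0.14 for Hes6, the most abundant.

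The genes of this list with the smallest p, named after their values were seen, were Maml3 and Dtx1. Maml3, a Mastermind coactivator, had 2.28 to 3.67 scaled FPKM with vehicle (median 2.60) and 1.47 to 2.49 with GA (median 2.32). All 6 GA libraries were below the vehicle median, and the log2 difference was -0.35 (standard error 0.16, exact permutation p = 0.0195, adjusted p = 0.9999 in limma). Dtx1, a ubiquitin ligase of Notch receptors, had 0.179 to 0.482 with vehicle (median 0.386) and 0.306 to 1.03 with GA (median 0.591). It rested on 21 to 117 reads per library, and 5 of 6 GA libraries were above the vehicle median (log2 difference 0.62, standard error 0.29, exact permutation p = 0.0693, adjusted p = 0.9999 in limma).

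**Figure D5:**
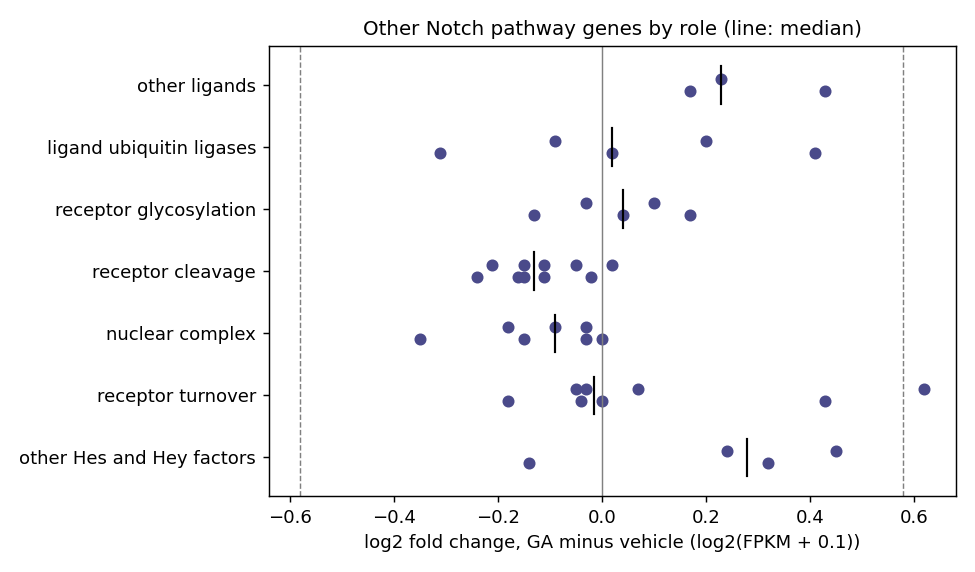
Log2 difference between GA and vehicle for the 42 tested genes of the rest of the pathway, by role, with the median of each role as a black line and dashed lines at 0.58 in either direction. Receptor cleavage genes lie between -0.24 and 0.02, and a single gene, Dtx1 at 0.62, lies past a dashed line.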

How the data were processed

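Reads of 12 tongue libraries had been aligned to mm10 with HISAT2 and counted per gene with featureCounts by the authors, who deposited them as FPKM values. The authors' own comparison used edgeR. Here, 41.4% of the rows of each table lacked a gene name and were left out. Library totals and whole reads were recovered with GENCODE M21 exon lengths, and between 97.2% and 98.4% of low values were whole within 0.02 reads. Values were scaled by trimmed means of log ratios, and genes averaging 0.1 FPKM or more were compared on log2(scaled FPKM + 0.1) with limma 3.58.1 in R 4.3.3 (trend, Benjamini-Hochberg). The limits, an adjusted p of 0.1 and an absolute log2 fold change of 0.58, followed the study. Single genes were also compared with an exact two-sided permutation test (smallest possible p 0.00216). The fit was tested on simulated data with 200 changed genes. At a log2 change of 1 it recovered 114 of them with 8 false calls, and at 2 it recovered 170 with 26. A gene with a change of 1 can thus be missed. The simulated noise was independent between genes, without the tissue differences that many genes share in these libraries. The recovered and false counts therefore need not hold for the real data. FPKM replaced counts, so limma was the main test. Alternatives covered the pseudocount, filter, scaling, replicate block, tissue and sex terms, left-out libraries and limma-voom on recovered reads.

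The members, the lists and the compartments were chosen with earlier results of these data known. Named genes were every member, pathway genes with an unadjusted p below 0.05 and the most abundant in each role, and the 2 genes, at 1 FPKM or more, most like each member. Some genes that this rule names are not reported here, and Dll4, Maml3 and Dtx1 were named outside it after their values were seen. Positions are GRCm38.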

Additional observations from a re-analysis of the deposited data

Results flagged for a closer look

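In groups of 6 libraries, 34 sets of values were examined for a library far from the others, and 2 were marked, where chance marks about 1 in 20. Vehicle library 3, at 14.1 scaled FPKM, was set apart below the other vehicle libraries for Jag1, with a gap to the next library of 0.665 of the whole range on the log2 scale. It was a gland-bearing library, and without it the Jag1 difference was -0.48 with an unadjusted limma p of 0.00682. Over all genes, 809 of 16852 had an unadjusted limma p below 0.05 without that library, against 364 with all 12 libraries. Vehicle library 1 was set apart below the others for the endothelium score, at 0.68, with a gap of 0.634 of the range. The same library had the lowest Notch4 level, the highest Notch2 level, and the lowest mural cell (-0.01) and skeletal muscle (7.19) scores of the 12.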

How the results depend on the processing

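No member and no other pathway gene was called under any alternative run. Over all genes the count called was 0, except 2 within the libraries without Y-linked reads and 1 without vehicle library 4 (range 0 to 1 over the left-out libraries). Members with an unadjusted p below 0.05 numbered 0 in the reported fit. They numbered 1, Jag1, with the sex term, the gland term, the mural cell term, limma-voom on recovered reads or without the gland-bearing libraries, and 2, Jag1 and Jag2, with the basal epithelium term. Over all genes, 364 of 16852 had such a p in the reported fit. The count was 443 with the sex term, 534 with the gland term, 505 with the mural cell term and 515 with the basal epithelium term. Without the gland-bearing libraries it was 511, and limma-voom gave 330 of 16110. Leaving out single libraries gave 0 to 1 member: Jag1 without vehicle library 3 or GA library 6, and Notch1 without GA library 2. The counts over all genes in these fits were 809, 853 and 392. Over 16 other settings the Jag1 difference ran from -0.46 to -0.26, and over 12 left-out libraries from -0.48 to -0.30. The sign changed for 4 genes near 0. Notch3 was -0.02 with the gland term, -0.04 with the neutrophil term and -0.03 without the gland-bearing libraries (-0.04 to 0.15 over left-out libraries, with the sign changed without vehicle 3, GA 3 or GA 6). Notch4 was -0.10 with the sex term, -0.04 with the endothelium term and -0.25 without Y-linked reads, but 0.39 with the neutrophil term and 0.44 without the gland-bearing libraries (-0.12 to 0.31, changed without vehicle 1 or GA 6). Dll1 was -0.03 without the gland-bearing libraries (-0.05 to 0.24, changed without vehicle 3), and Hes1 was 0.02 without Y-linked reads (-0.14 to 0.02, changed without vehicle 4 or GA 4, where it was 0.00). The cause was not tested. The restriction to libraries without Y-linked reads and the basal and mural terms were chosen after the data were seen.

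The replicate numbers were also used as a block. Deviations of same-numbered libraries had correlations between -0.50 and 0.12, and 0 of 6 vehicle libraries correlated best with their own number, so the libraries share only a number. With the replicate block 0 genes were called and 245 had an unadjusted p below 0.05, against 364 without it. Hey1 and Notch4 had the fewest reads of the 10 genes.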

Other observations

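Hey1, whose nearest genes were X-linked, was lower in the gland-free libraries with Y-linked reads, at 0.861, 0.846 and 1.02 scaled FPKM in vehicle libraries 1, 2 and 4 and 0.869 in GA library 1. In the gland-free libraries without such reads it was 1.2 in vehicle library 6 and 1.33, 1.49, 1.57 and 1.24 in GA libraries 3 to 6. The gland-bearing vehicle library 3, which had Y-linked reads, did not share the pattern, at 1.49, and the gland-bearing libraries without such reads, vehicle 5 at 1.05 and GA 2 at 1.13, lay near the values of the first set. Hey1 itself lies on chromosome 3 (8663359 to 8667256). The pattern was noticed in these data and has no test of its own, and with a term for Y-linked reads the GA difference of Hey1 was 0.08 in place of 0.22, while within the libraries without such reads it was 0.24.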
